A study of Mus musculus with 2 samples.

Results

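Galectin 1 and 9 genes of the actin cytoskeleton were followed in single neural stem cells that were quiescent, leaving quiescence or activated. The 10 genes are Lgals1, Tagln2, Cnn2, Cnn3, Tmsb4x, Tmsb10, Actb, Actg1, Pfn1 and Cfl1, taken by symbol from the 15364 genes of the merged count table, and all 10 were found. The group was selected on earlier results of these same cells, the log2 ratios of CPM between the cultures, in which Lgals1, Tagln2 and Cnn2 were among the large ones, so their values between conditions are a description and carry no test.

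Primary hippocampal neural stem cells had been isolated from C57BL6/J males that were 6 weeks old, and were grown in serum-free medium. All 4 cultures share that origin and FGF-2. The quiescent culture had been kept in medium with 50 ng/mL BMP-4 and without EGF, for at least 3 days by the labels' definition of quiescence. The 24 h exit and 48 h exit cultures were quiescent cells put back into medium with 20 ng/mL FGF-2 and EGF, to which 0.5 µg/mL of the BMP antagonist noggin was added. The activated culture grew with FGF-2 and EGF, with no noggin named for it, and was the state from which quiescence was induced. Each condition is 1 culture, and the labels do not say how many animals it came from. Cells were sorted singly into wells from 4 gates of punctate autofluorescence (low, low-mid, mid-high and high), and a transcript was counted once per molecular identifier (SORT-seq).

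Quiescent and 24 h exit cells were on 1 plate, and activated and 48 h exit cells on the other. Activated against quiescent, 48 h against quiescent and 48 h against 24 h are therefore comparisons between plates. Plate and condition cannot be told apart there. The per-cell table kept 640 cells: 174 quiescent, 151 at 24 h, 151 at 48 h and 164 activated, where the design text speaks of 47 cells per condition. Median counts per cell were 25137, 19270, 24947 and 35946 in that order, and cells had between 5013 and 97009 counts. On the 2 plates together, 269 well barcodes were kept on both, each with its own plate's library. All 10 neural stem cell markers had counts in every culture and summed to between 4308 and 6874 CPM (counts divided by the total of the culture and scaled to 1e+06). Fabp7 alone gave 4901 CPM in quiescent and 2152 CPM in 48 h cells, and single markers went different ways. From quiescent to activated cells Gfap went from 72.5 to 1.37 CPM, Hopx from 25.1 to 4.72 CPM and Nes from 56.9 to 657 CPM. Markers of microglia, of endothelium and of pericytes, smooth muscle and fibroblasts each summed to 4.27 CPM or less in every culture. Aif1, Cldn5, Cdh5 and Dcn were among those with no row in the merged count table, so these sums leave them out.

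Actin exists as single subunits and as filaments, and cells grow or dissolve filaments by controlling which subunits are free. Thymosins hold subunits back, profilin hands them to growing ends, cofilin cuts old filaments, and calponins and transgelins bind along the sides of filaments. Galectin 1 is different in kind: it is a secreted and cytosolic protein that binds β-galactoside sugars, and in the adult mouse hippocampus it is known as a product of neural stem cells that promotes their proliferation. Many actin genes are controlled by serum response factor (SRF), which binds a DNA element called the CArG box and whose partner MRTF is held by free actin subunits.

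Promoter sequences are shown for 4 members because SRF sites are the textbook element of actin genes. Whether SRF bears on the levels in these cells was not tested. They come from RefSeq's GRCm38.p6 promoter windows, which hold 250 bases before and 50 bases after a gene's start, and which covered 8 of the 10 genes in 10 windows. Lgals1 and Actb were not analysed here for motifs. The 150 bases before the start are printed 5′ to 3′ on the gene's own strand, with CArG boxes (both strands, a palindromic pattern) and the TEAD factor motif (CATTCC or its complement GGAATG, either strand) in capitals. Both motifs were chosen after the windows had been read.
Cnn2, chr10:79988450-79988599, plus strand: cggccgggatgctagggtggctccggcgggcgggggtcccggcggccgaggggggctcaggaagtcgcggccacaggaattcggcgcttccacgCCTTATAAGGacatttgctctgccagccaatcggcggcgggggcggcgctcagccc
Actg1, chr11:120348496-120348645, minus strand: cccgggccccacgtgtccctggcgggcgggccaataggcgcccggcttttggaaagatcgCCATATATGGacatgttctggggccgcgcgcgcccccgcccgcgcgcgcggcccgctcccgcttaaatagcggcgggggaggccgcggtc
Tagln2, chr1:172500096-172500245, plus strand: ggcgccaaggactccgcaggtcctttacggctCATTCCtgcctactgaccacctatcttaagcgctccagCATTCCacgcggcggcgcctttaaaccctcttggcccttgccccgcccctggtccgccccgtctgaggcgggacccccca
Cnn3, chr3:121426391-121426540, plus strand: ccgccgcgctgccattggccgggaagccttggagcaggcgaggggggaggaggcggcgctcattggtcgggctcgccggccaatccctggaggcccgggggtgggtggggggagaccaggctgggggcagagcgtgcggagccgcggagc
The CArG box of Cnn2, CCTTATAAGG, began 56 bases before the start, and that of Actg1, CCATATATGG, 90 bases before it. No other member window held one. Over RefSeq as a whole 1.63% of 32851 windows and 1.81% of 27025 genes did. Tagln2 held 2 TEAD motifs, 118 and 80 bases before its start, and Pfn1 held 1. At least 1 was thus held by 2 of 8 member genes, beside 14.7% of all windows and 16.6% of all genes. The Cnn3 window, that of the Cnn2 paralog, held neither motif. A match is a string of letters and not a measured binding site.

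In activated cells all 10 genes stood above quiescent cells, but by very different amounts, and 4 of them, Lgals1, Tagln2, Cnn2 and Tmsb10, were 11 to 22 times as high. The other 6 were 1.25 to 2.58 times as high. Levels are CPM of summed counts, and log2 ratios were taken after adding 10 CPM, which understates the change of the lowest genes. Brackets give 95% counting intervals, which leave out any difference between cultures, since there is 1 culture per condition. By those ratios 7 of the 10 genes were at least 2-fold higher in activated cells, beside 9.12% of the 11011 genes with at least 20 counts over both cultures. The count was 6 with TMM scaling, 8 with 1 CPM added or in the high gate alone, and 9 per spike-in. For these settings the share of all genes is not given. The contrast of activated with quiescent cells helped to choose the genes, so the share says nothing more about them.

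Lgals1, galectin 1, had 50.3 CPM in quiescent cells, 101 CPM at 24 h, 239 CPM at 48 h and 1042 CPM in activated cells. It stepped up at each stage, and the gates of no 2 neighbouring stages overlapped. Its log2 ratio of activated to quiescent cells was 4.13 (3.97 to 4.29), and it was between 3.81 and 4.54 in the 4 gates taken singly. Tagln2, a transgelin that binds actin filaments, had 8.93 CPM in quiescent cells, 5.58 CPM at 24 h, 46.3 CPM at 48 h and 195.5 CPM in activated cells. The counts behind these levels were 43, 17, 191 and 1283, with no overlap of gates between 24 h and 48 h or between 48 h and activated cells. Its log2 ratio of activated to quiescent cells was 3.44 (3.21 to 3.65).

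Cnn2, a calponin of non-muscle cells, had 7.27 CPM in quiescent cells, 4.27 CPM at 24 h, 8.24 CPM at 48 h and 90.1 CPM in activated cells. In contrast to Tagln2 it was as low at 48 h as in quiescent cells, with 34 counts in 151 cells at 48 h and 35 counts in 174 quiescent cells. The low gate at 24 h held no Cnn2 count, which with 501929 counts in that gate leaves room for up to 3 counts. Its log2 ratio of activated to quiescent cells was 2.54 (2.29 to 2.75). Cnn3, the calponin paralog that was seen in most cells of every culture, had 201 CPM in quiescent cells, 188 CPM at 24 h, 187 CPM at 48 h and 407 CPM in activated cells. The first 3 stages overlapped over their gates, between 170 and 237 CPM, and the activated gates lay between 399.5 and 420 CPM.

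The subunit-binding thymosins moved apart from each other. Tmsb10, thymosin β10, had 41.3 CPM in quiescent cells, 35.1 CPM at 24 h, 90.7 CPM at 48 h and 455 CPM in activated cells. Its log2 ratio of activated to quiescent cells was 3.18 (3.01 to 3.35). Tmsb4x, thymosin β4, had 2101 CPM in quiescent cells, 1538 CPM at 24 h, 1448 CPM at 48 h and 2622 CPM in activated cells. It was the only one of the 10 whose levels at both exit times lay below quiescent and activated cells alike with no overlap of gates. Its gates lay between 1422 and 1577 CPM in the exit cultures and between 1989 and 2719 CPM in the others. For every 100 Tmsb4x counts there were 1.97 Tmsb10 counts in quiescent cells, 2.28 at 24 h, 6.27 at 48 h and 17.3 in activated cells. The dip of Tmsb4x was also there per spike-in, with log2 ratios to quiescent cells of -0.91 at 24 h and -0.34 at 48 h, beside median shifts of -0.29 and 0.10. Abundant Actb moved by more than the median there, from 0.17 in CPM to -0.30 at 24 h and from 0.74 to 0.93 at 48 h.

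The actins themselves were higher in activated cells by similar factors. Actb, β-actin, had 1511 CPM in quiescent cells, 1696 CPM at 24 h, 2534 CPM at 48 h and 3798 CPM in activated cells. Actg1, γ-actin, had 1601, 1737, 2200 and 4125 CPM in the same order of cultures. Their log2 ratios of activated to quiescent cells were 1.32 (1.29 to 1.36) for Actb and 1.36 (1.32 to 1.40) for Actg1. At 48 h there were 115 Actb counts for every 100 Actg1 counts, while the other 3 cultures had between 92.1 and 97.6. Over the gates the ratio lay between 110 and 132 at 48 h, between 93.7 and 110 at 24 h, between 84.8 and 102 in quiescent cells and between 85.4 and 96.9 in activated cells, so that the highest gate at 24 h lay just under the lowest at 48 h. The coding sequences of the 2 actins are nearly identical and several members have processed pseudogene copies elsewhere, so how reads were split between copies is uncertain. No row of the table was named as such a copy.

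Pfn1, profilin, had 202 CPM in quiescent cells, 164 CPM at 24 h, 332 CPM at 48 h and 433 CPM in activated cells. Cfl1, cofilin 1, had 2087, 1960, 2716 and 3707 CPM in the same order. Both were lowest at 24 h, though their gates at 24 h overlapped those of quiescent cells. In activated cells the log2 ratio to quiescent cells was 1.06 (0.96 to 1.17) for Pfn1 and 0.83 (0.79 to 0.86) for Cfl1.

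**Figure D1:**
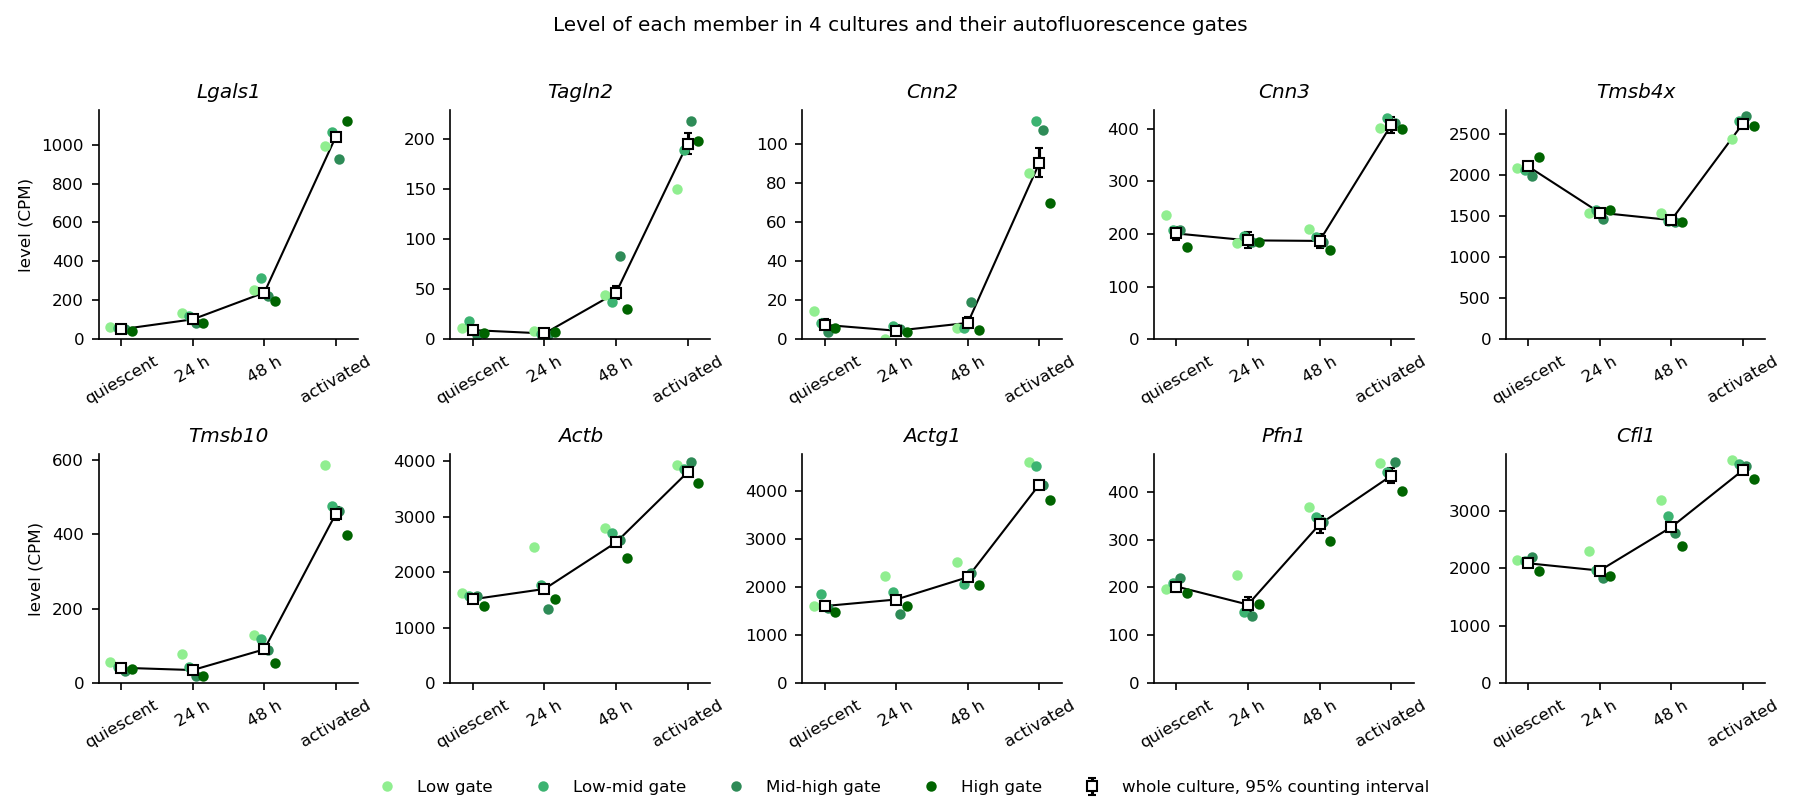
Level of each of the 10 genes in CPM (linear axes that start at 0) by culture, ordered from quiescence over both exit times to activation. White squares are whole cultures with their 95% counting intervals and coloured points are the 4 autofluorescence gates. Lgals1, Tagln2, Cnn2 and Tmsb10 have most of their height in the activated culture, Pfn1, Actb and Cfl1 are already well above quiescent at 48 h, and Tmsb4x dips at both exit times.

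CPM is a share of the culture's counts. Counted per spike-in molecule instead, the median gene was itself shifted by 0.47 between activated and quiescent cells on the log2 scale, since activated cells yielded more counts per spike-in. On that scale all 10 genes were higher in activated cells, with log2 ratios from 0.95 for Tmsb4x to 4.73 for Lgals1. All 10 lay above that median shift, though the median is not the shift of an abundant gene: Actb went from 1.32 in CPM to 1.95. In each of the 4 gates taken alone, all 10 were also higher in activated cells, and the gates of activated and quiescent cells overlapped for none of the 10. The share of all genes that did the same is not given here, and this contrast helped to choose the 10. Activated cells also had more counts each, and in cells thinned to one total the log2 ratio of activated to quiescent cells ranged from 0.35 for Tmsb4x to 4.07 for Lgals1.

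At 24 h Lgals1 was, in CPM, the gene of the group that stood furthest from quiescence. Its gates at 24 h lay between 81.6 and 136 CPM, and those of quiescent cells between 38.9 and 61.8 CPM, with no overlap. The log2 ratio of 24 h to quiescent cells was 0.89 (0.67 to 1.10), and 98.3% of the 10462 genes compared had a lower ratio. Both cultures were on the same plate. With 10 CPM added none of the 10 was at least 2-fold higher or lower, beside 1.23% of genes higher and 2.27% lower. The CPM of Lgals1 with nothing added was 2.02 times as high at 24 h as in quiescent cells. Tmsb4x had a log2 ratio of -0.45 (-0.50 to -0.40), with no overlap of gates. The other 8 had ratios between -0.28 and 0.17 and overlapping gates. Per spike-in, where the median gene was shifted by -0.29, Lgals1 kept a ratio of 0.46 and Tmsb4x one of -0.91. On that scale Tmsb4x stood furthest from quiescence, and Pfn1 at -0.71, Cfl1 at -0.55, Cnn3 at -0.53 and Tmsb10 at -0.52 were also further than Lgals1. Actb and Actg1, at 0.17 and 0.12 in CPM, turned to -0.30 and -0.34. Low genes moved less between these scales than abundant ones, because the constant added before log2 was taken weighs most on low levels. Tagln2 went from -0.28 to -0.41 and Tmsb4x from -0.45 to -0.91. The median shift is therefore no reference for the actins.

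Between 24 h and 48 h, across plates, Tagln2, Lgals1 and Tmsb10 were at least 2-fold higher, beside 4.49% of 10324 genes, and none was lower, beside 2.62%. The log2 ratio of 48 h to 24 h cells was 1.85 (1.53 to 2.12) for Tagln2, 1.16 (0.99 to 1.33) for Lgals1 and 1.16 (0.90 to 1.41) for Tmsb10. Tmsb10 had overlapping gates at the 2 times. Pfn1 followed with 0.97 (0.83 to 1.12), and its gates did not overlap. Cnn3 and Tmsb4x differed little, with -0.01 (-0.16 to 0.14) and -0.09 (-0.14 to -0.03). Per spike-in both turned positive, with 0.61 and 0.56. The median gene was shifted by 0.38 there, but Pfn1 went from 0.97 to 1.59 and Actb from 0.58 to 1.23. The median is thus no reference for genes at these levels. In the low gate alone 1 of the 10 was past 2-fold and per spike-in 6 were. The share of all genes past 2-fold is not given for these settings, so the counts cannot be set against it.

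Cells at 48 h were still apart from activated cells on their own plate. All 10 genes were lower at 48 h than in activated cells, with no overlap of gates for any of them. The median log2 ratio of all genes compared was -0.08, and the share of all genes without overlap is not given here. Cnn2, Tmsb10, Lgals1, Tagln2 and Cnn3 were at least 2-fold lower, beside 1.63% of 10780 genes. Their log2 ratios of 48 h to activated cells were -2.46, -2.21, -2.08, -1.87 and -1.08 in that order. Pfn1, at -0.38 (-0.47 to -0.28), and Cfl1, at -0.45 (-0.48 to -0.41), were closest to the activated level. Per spike-in, 8 of the 10 genes were at least 2-fold lower, beside a median shift of -0.38. The share of all genes past 2-fold on that scale is not given.

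**Figure D2:**
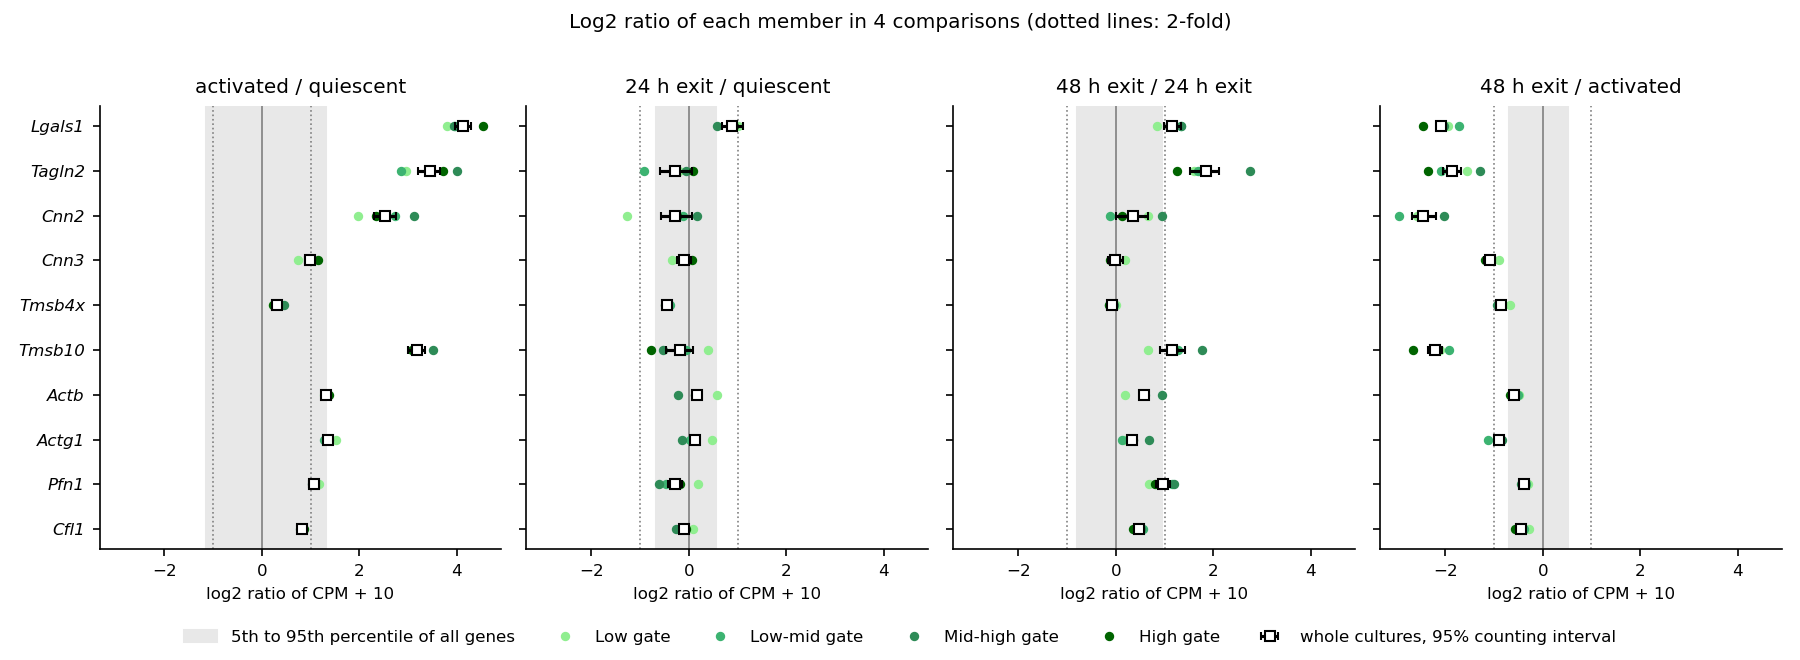
Log2 ratio of CPM + 10 for each gene in 4 comparisons, named above each panel as first over second culture. White squares are whole cultures with 95% counting intervals, coloured points the gates taken singly, the grey band the 5th to 95th percentile of all genes compared, and dotted lines 2-fold. Lgals1, Tagln2, Cnn2 and Tmsb10 lie furthest outside the band in activated over quiescent and in 48 h over activated.

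At 48 h the 10 genes lay at different points between their quiescent and activated levels. The 48 h culture shared a plate with the activated culture only, so plate and position cannot be told apart. Taking the quiescent level as 0% and the activated level as 100% in CPM, Pfn1 had covered 56.1% at 48 h, Actb 44.7% and Cfl1 38.8%. Actg1 had covered 23.7%, Tagln2 20.0%, Lgals1 19.0% and Tmsb10 11.9%. Cnn2 had covered 1.18%, with gates from -11.9% to 14.9%, and Cnn3 -6.88%. Tmsb4x was at -126% in CPM, its distance below quiescence being larger than the small difference between the end states. Per spike-in, a scale chosen here after seeing the data, Tmsb4x was at -22.9%, Cnn3 at 2.89%, Lgals1 at 14.2%, Actb at 31.7% and Pfn1 at 37.7%. Over the gates Pfn1 ranged from 48.4% to 65.5% and Lgals1 from 14.6% to 25.5%, which do not overlap, while Tagln2, from 11.4% to 37.0%, overlapped both Lgals1 and Actg1. Set against quiescent cells, on the other plate, 48 h cells were at least 2-fold higher in Lgals1 and Tagln2, beside 4.47% of 10663 genes. In none of the 10 were they at least 2-fold lower, beside 4.75%.

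**Figure D3:**
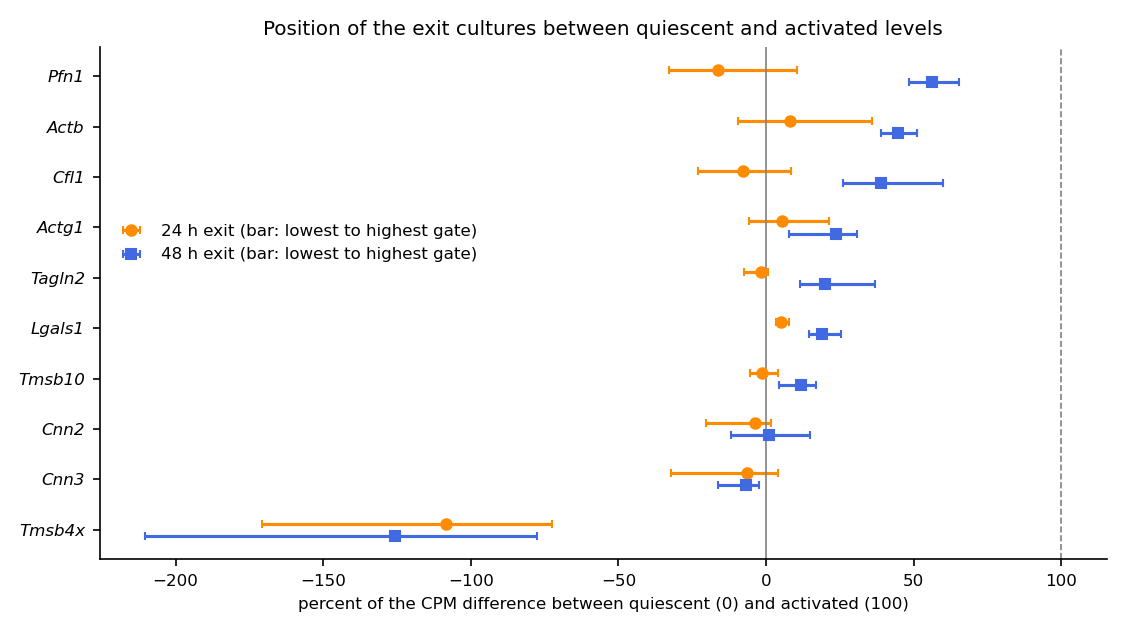
Position of each gene at 24 h (circles) and 48 h (squares) as a percent of the CPM difference between quiescent (0) and activated (100) cells, with bars from the lowest to the highest gate. At 48 h Pfn1, Actb and Cfl1 lie between 38.8% and 56.1%, Cnn2 and Cnn3 near 0 and Tmsb4x below it.

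Cell by cell, the share of cells with an Lgals1 count was higher at each stage. For shares, every cell was thinned to 12751 counts, which left out 18 quiescent, 29 24 h, 11 48 h and 6 activated cells. Lgals1 was then counted in 42.9% of quiescent cells (exact binomial 95% interval 35.1 to 51.1), 62.3% of 24 h cells (53.1 to 70.9), 92.9% of 48 h cells (87.3 to 96.5) and 158 of 158 activated cells. Without thinning the share was 59.8% in quiescent cells. The median cell had 0, 1, 3 and 12 Lgals1 counts in the same order of cultures, and 71.5% of activated cells exceeded the highest quiescent cell, which had 9.

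Tmsb10 was counted in 39.1% of quiescent, 28.7% of 24 h, 65.7% of 48 h and 96.2% of activated cells. Tagln2 was counted in 9.62%, 5.74%, 38.6% and 84.8% of cells in that order, and Cnn2 in 8.97%, 5.74%, 10.0% and 59.5%. Without thinning the quiescent shares were 54.6% for Tmsb10, 14.9% for Tagln2 and 16.7% for Cnn2. For Cnn2 the intervals of the first 3 cultures overlapped, from 2.34% to 16.2%, so no difference between them was detectable at this depth. Cnn3 was counted in between 86.5% and 88.5% of cells in the first 3 cultures and in all 158 activated cells, and Pfn1 in 82.8% to 99.4% of cells. Actb, Actg1, Cfl1 and Tmsb4x were counted in every thinned cell. No cell at 48 h exceeded the highest activated cell for any of the 10 genes.

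**Figure D4:**
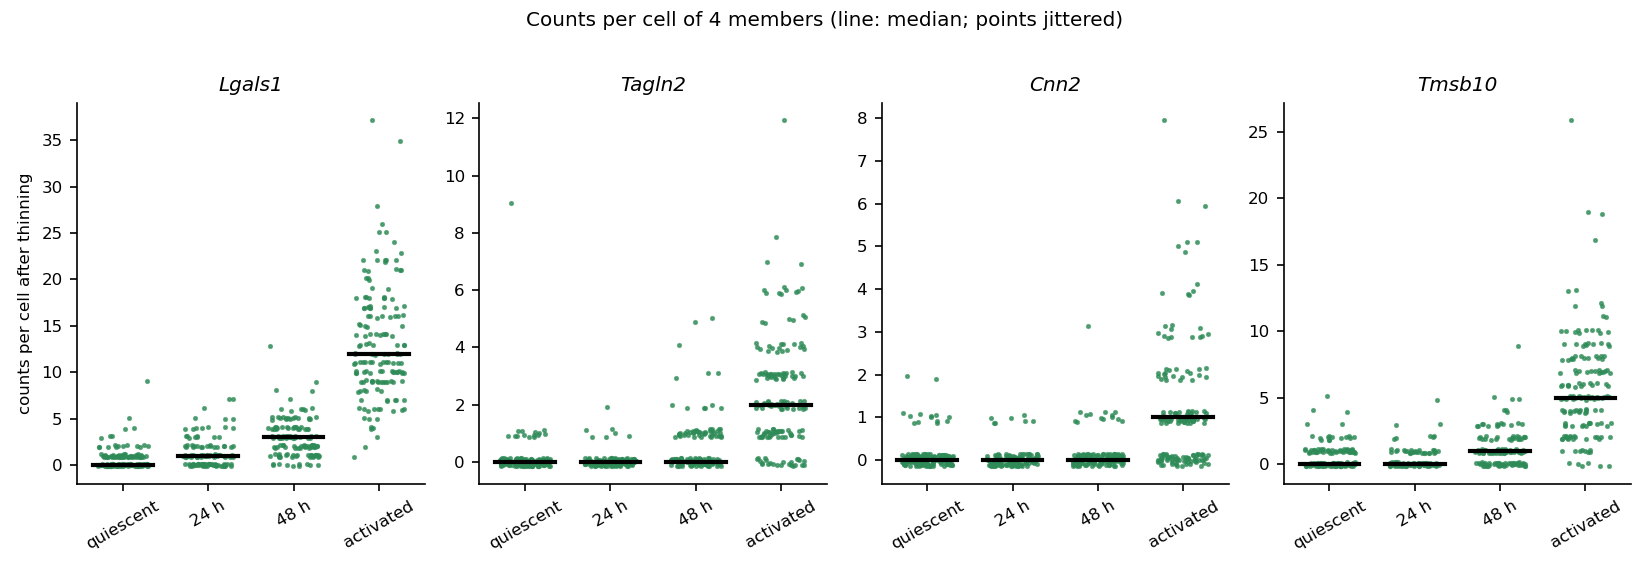
Counts per cell of Lgals1, Tagln2, Cnn2 and Tmsb10 after thinning each cell to the same total, by culture (1 point per cell, with jitter; line, median). The median of Lgals1 is 0, 1, 3 and 12 counts, and 1 quiescent cell has 9 Tagln2 counts.

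A single quiescent cell weighed on Tagln2. It lay in the low-mid gate, was called G1 and was put by the authors in cluster 0, and before thinning it held 13 of the 43 Tagln2 counts of the quiescent culture and 11 of its 242 Lgals1 counts. Without it Tagln2 stood at 6.26 CPM in quiescent cells. With each gene's top cell left out of every culture, the log2 ratio of Tagln2 in activated to quiescent cells was 3.60. At 48 h, 1 cell held 8 of the 34 Cnn2 counts, and without it Cnn2 stood at 6.37 CPM. Of the 191 Tagln2 counts at 48 h, 17 were in 1 cell of cluster 3 that was called G2M. Without that cell Tagln2 stood at 42.6 CPM at 48 h. The cell counts on the higher side of the Tagln2 contrasts by cluster and phase given below, whose intervals do not allow for it.

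The authors' clusters followed the cultures. Cluster 1 held 166 cells, all quiescent, cluster 2 held 163 activated cells and 1 48 h cell, cluster 0 held 145 cells of 24 h, 41 of 48 h and 2 quiescent, and cluster 3 held 109 cells of 48 h, 6 of 24 h, 6 quiescent and 1 activated. The clusters were made from these cells' genes, so levels by cluster are a description. Lgals1 had 140 CPM in cluster 0, 47.0 CPM in cluster 1, 1044 CPM in cluster 2 and 221 CPM in cluster 3. Tmsb10 had 48.4, 40.2, 455 and 88.2 CPM, and Cnn2 4.97, 7.72, 89.9 and 8.44 CPM, in the same order.

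The 48 h culture was split over clusters 3 and 0, and of the 10 genes Tagln2 differed most between them. Tagln2 had 54.3 CPM in the 109 48 h cells of cluster 3 and 24.4 CPM in the 41 of cluster 0, a log2 ratio of 0.90 (0.45 to 1.35). Lgals1 had 238 CPM in those of cluster 3 and 240 CPM in those of cluster 0. The ratios of the other 9 lay between -0.01 and 0.19, and none of the 10 was past 2-fold, beside 4.86% of 9390 genes higher and 0.330% lower. The 2 quiescent cells of cluster 0 had 268 CPM of Lgals1, and the 166 of cluster 1 had 47.0 CPM, from 14 counts in the pair of cells, 11 of them in the cell named above.

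The cultures differed in cell cycle phase by the authors' calls. G0 was called in 146 of 174 quiescent, 138 of 151 24 h, 22 of 151 48 h and 1 of 164 activated cells. The distance between 48 h and activated cells was also there within 1 phase, and was smaller for Tagln2 in G2M cells. Among S cells, 50 at 48 h and 61 activated, Lgals1 had 225 CPM at 48 h and 994 CPM in activated cells, a log2 ratio of -2.09 (-2.26 to -1.93). In S cells Cnn2 had a ratio of -2.20, Tmsb10 one of -2.14 and Tagln2 one of -2.03. In G2M cells, 58 at 48 h and 79 activated, the ratios were -2.01 for Lgals1, -2.66 for Cnn2, -2.24 for Tmsb10 and -1.46 for Tagln2. All 10 genes were lower at 48 h within S, within G2M and within G1 cells. The share of all genes that were lower within a phase is not given here. Pfn1 in G1 cells was closest to 0, at -0.25 (-0.50 to -0.0035).

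Inside the 48 h culture, Tagln2 differed most with phase. It had 55.4 CPM in the 108 cells in S or G2M and 20.5 CPM in the 43 in G0 or G1, a log2 ratio of 1.10 (0.63 to 1.56). Lgals1, at 240 CPM in S or G2M and 235 CPM in G0 or G1, had a ratio of 0.03 (-0.17 to 0.23). The remaining 8 lay between -0.10 and 0.16, and for Actg1, at -0.10 (-0.16 to -0.03), the interval left out 0. In activated cells no gene of the 10 differed by more than 0.16 between the same phase groups, and Tagln2 had 199 CPM in S or G2M and 177 CPM in G0 or G1.

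Within a culture the 10 genes varied together only weakly from cell to cell. Over the 45 pairs of genes the median Pearson correlation of log2 thinned counts was 0.05 in 156 quiescent cells, 0.08 in 122 cells at 24 h, 0.07 in 140 cells at 48 h and 0.14 in 158 activated cells. These cells share a plate, a library and 1 culture, and most counts are low. The highest pair was Actb with Actg1, at 0.50 at 24 h and 0.49 at 48 h, followed by Actb with Cfl1 at 0.47 at 48 h.

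Autofluorescence differed within each culture by gate, and each culture gives a high and a low gate, so that the culture is the unit of replication (n = 4). Of the 10 genes, Tmsb10 was called lower in the high gate and none was called higher. In edgeR's quasi-likelihood test with the culture as a block, its log2 ratio of high to low gate was -0.77 (SE 0.18, Benjamini-Hochberg adjusted p = 0.0234 over 8739 genes). Tmsb10 was 1 of 42 genes that were lower (0.481% of those tested), and 166 were higher (1.90%). Values of this contrast in all genes were known when the group was described, and whether they bore on the choice of Tmsb10 is not recorded.

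Tmsb10 had 38.3 CPM in the high gate and 57.1 CPM in the low gate of quiescent cells, 18.2 and 77.7 CPM at 24 h, 54.7 and 128 CPM at 48 h, and 398 and 585 CPM in activated cells. It was lower in the high gate in 4 of 4 cultures, in CPM and with TMM scaling. In CPM, Actb, Actg1, Pfn1 and Cfl1 were lower in 4 of 4 cultures too, where the median gene stood between -0.19 and -0.03. With TMM scaling each of those was lower in 3 cultures and higher in 1. The mean TMM-scaled log2 ratio of Tmsb10 over the 4 cultures was -0.81 ± 0.57 (SD, n = 4), from -1.57 at 24 h to -0.27 in quiescent cells. The call was lost without the 48 h culture, at -0.70 with an edgeR adjusted p of 0.212, and without the activated culture, at -0.97 with an edgeR adjusted p of 0.0631. High-gate cells had more counts, with a median of 40452 in the high gate against 18910 in the low gate of quiescent cells, and at 48 h 32.5% of high-gate and 0% of low-gate cells were called G0. With G0 cells alone in the quiescent and 24 h cultures and S and G2M cells alone in the other 2, the ratio was -0.78 with an edgeR adjusted p of 0.0228. Whether depth bears on the ratio was not tested.

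Tmsb4x did not share this. It had 2219 CPM in the high gate and 2078 CPM in the low gate of quiescent cells, and its log2 ratio of high to low gate was 0.19 (SE 0.12, edgeR adjusted p = 0.471). With TMM scaling its ratio was above 0 in 4 of 4 cultures, and in CPM in 3 of 4, with 1422 CPM in the high gate and 1536 CPM in the low gate at 48 h. For Lgals1 the ratio was -0.13 (SE 0.15, edgeR adjusted p = 0.721), with 1123 CPM in the high gate and 995 CPM in the low gate of activated cells and 38.9 CPM in the high gate and 61.8 CPM in the low gate of quiescent cells. The other 7 had ratios between -0.29 and 0.11 and did not pass.

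**Figure D5:**
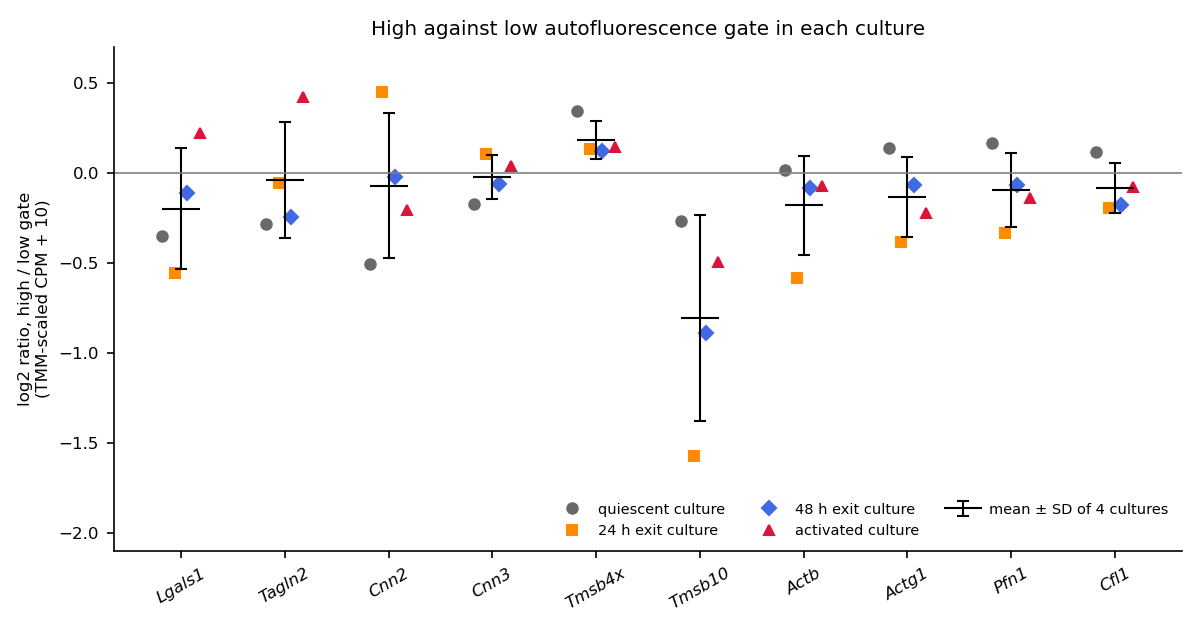
Log2 ratio of the high to the low autofluorescence gate for each gene (TMM-scaled CPM + 10), with 1 point per culture and the mean ± SD of the 4 cultures. Tmsb10 is below 0 in 4 of 4 cultures, Tmsb4x above 0 in 4 of 4, and the other 8 genes lie on both sides of 0.

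Around the 10 genes, 129 further genes of the actin system, of galectins and of S100 and annexin proteins were listed. Of the 102 with enough counts, 22 (21.6%) were at least 2-fold higher and 7 (6.86%) at least 2-fold lower in activated than in quiescent cells, beside 9.12% and 6.50% of all genes, and their median log2 ratio was 0.29 beside 0.07. At 48 h against activated cells 16 (15.7%) were lower and 0 higher, beside 1.63% and 1.25%. At 24 h against quiescent cells 2 of 99 were higher (2.02%) and 6 lower (6.06%), beside 1.23% and 2.27% of all genes. At 48 h against 24 h 3 of 100 were higher and 3 lower, beside 4.49% and 2.62%, and at 48 h against quiescent cells 1 of 100 was higher and 8 lower, beside 4.47% and 4.75%.

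By role, the S100 and annexin list had 5 of 7 genes past 2-fold in activated cells, and none at 48 h against quiescent cells. S100a10, the annexin A2 partner, had 217 CPM in activated and 38.6 CPM in quiescent cells, and 52.6 CPM at 48 h. Crosslinkers and membrane linkers had 7 of 17 higher and 3 lower: filamin A (Flna) had 302 CPM in activated and 53.4 CPM in quiescent cells, fascin (Fscn1) had 308 and 72.3 CPM, and plastin 3 (Pls3) had 61.6 and 368 CPM. Of 4 calponin-family and tropomyosin genes 2 were higher, among them tropomyosin 4 (Tpm4), with 362 CPM in activated and 66.7 CPM in quiescent cells. Myosin II and focal adhesion genes had 3 of 14 higher, and zyxin (Zyx) had 83.5 CPM in activated and 14.1 CPM in quiescent cells.

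The other lists held fewer. None of 19 genes of the Arp2/3 complex, which nucleates branched filaments, and its activators was past 2-fold, and Actr3, with 256 CPM in activated and 125 CPM in quiescent cells, came nearest, at a log2 ratio of 0.98 with 10 CPM added. Actin isoforms and subunit binders had 2 of 9 higher, with Cap2 at 57.8 CPM in activated and 17.0 CPM in quiescent cells and already 71.6 CPM at 24 h. Capping proteins and formins had 1 higher and 1 lower of 13. Of the other galectins and galectin-binding proteins, 2 of 4 measured were at least 2-fold lower, Lgals8 with 11.1 CPM in activated and 86.0 CPM in quiescent cells, and the galectin-related Lgalsl with 39.5 CPM in activated and 195 CPM in quiescent cells. The other 2 had ratios above 0 and were not past 2-fold. In the gate test 2 of 96 tested list genes passed, beside 1.90% of all genes higher and 0.481% lower, a share near that of all genes. These were the formin Daam2 higher in the high gate (log2 1.24, edgeR adjusted p = 0.0495) and Fscn1 lower (log2 -0.51, edgeR adjusted p = 0.0499).

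Over the 16 sums of a culture and a gate, the genes outside the group most like Lgals1 by Pearson correlation of log2 of CPM + 10, among 8987 genes, were Trp53i11 at 0.98, and Cct4, Lasp1, Mtss1 and Ccnyl1 at 0.97 each. The 4 gates of a culture share that culture, so this likeness rests mostly on 4 levels. Trp53i11 had 21.8, 32.8, 134 and 839 CPM in quiescent, 24 h, 48 h and activated cells. Of the other 9 members Actb was most like Lgals1, at 0.96, and Tmsb4x least, at 0.46.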

How the data were processed

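Neural stem cells from 4 cultures on 2 plates of 384 wells were profiled by SORT-seq and CEL-Seq2, sequenced with 26 and 60 cycles per the labels' protocols. The submitters' processing notes name mm10 and hg19 as builds, and Seurat 4.1.1, R 4.2.0 and BWA 0.7.15 as tools. The aligner's settings and how reads with several matches were counted are not given in the sources used here. The authors deposited tables of expected counts, which are molecule counts corrected for sharing 1 of 4096 identifiers (undoing this gave whole numbers to within 4.79e-05), and a per-cell table with condition, gate, cluster, phase and autofluorescence intensity in arbitrary units, per the file headers. Filters on cells and removal of doublets are not stated, no doublet caller was run, and 128 wells outside the per-cell table were not used.

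Expected counts were summed per culture, or culture and gate, and divided by the total to give CPM. Ratios used CPM + 10, with exact conditional binomial 95% intervals, and Poisson 95% intervals on levels. Intervals cover counting error only. Genes with at least 20 counts over 2 cultures were compared, and an absolute log2 ratio of 1 counted as 2-fold. With 1 culture per condition no test was made between conditions. Sums of the high and low gates, rounded to whole numbers, were tested in edgeR 4.0.16 with filterByExpr, TMM and the culture as a block, at an adjusted p of 0.05. This treats the 4 cultures as replicates of the gate difference. The script was tested on simulated data. Alternatives included DESeq2 1.42.0 and are given in the closing section. Promoters and gene names are RefSeq's.

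The members, lists and motifs were chosen with earlier results of these data known. All members are named. Of the listed genes, up to 3 per list with the largest ratio of activated to quiescent cells could be named, with those called between gates and the 5 most like Lgals1. The genes of 1 list are counted in the totals and are otherwise not reported here. All lists of cell type markers are covered by the sums given: neuron markers came to between 11.2 and 19.4 CPM, and oligodendrocyte markers to between 74.9 and 167 CPM, mostly Cnp.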

Additional observations from a re-analysis of the deposited data

Results flagged for a closer look

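Between gates, 2 values stood far from the other 3 cultures by Dixon's criterion, which chance meets in about 1 group in 20, and 10 genes were looked at. The TMM-scaled log2 ratio of high to low gate of Tmsb4x was 0.34 in the quiescent culture, while the other 3 cultures lay between 0.12 and 0.14. That of Actb was -0.59 in the 24 h culture, while the other 3 lay between -0.08 and 0.02.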

How the results depend on the processing

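No log2 ratio of at least 1 in size changed its direction in any alternative: 1 CPM added, totals without mitochondrial and ribosomal protein genes, gates weighted alike, each gate alone, thinned cells, spike-in scaling, TMM, and, chosen after seeing the data, leaving out each gene's top cell. Of 550 member ratios under these alternatives, 203 moved outside their counting interval. In the low gate alone the count of members past 2-fold at 24 h against quiescent cells became 1 higher and 1 lower, and that at 48 h against 24 h became 1 higher. Per spike-in it became 6 higher at 48 h against 24 h and 8 lower at 48 h against activated cells. In the mid-high gate alone it became 4 higher at 48 h against quiescent cells. Shares of all genes are not given for these settings. The cause of these changes was not tested, except that a single gate holds fewer cells. Of 80 shares of cells without thinning or thinned to the lower total, 36 moved outside their interval, and per spike-in 5 of the 10 positions at 48 h moved outside the range of their gates. Small ratios changed sign 23 times, 10 of them at 24 h against quiescent cells and none in activated against quiescent or 48 h against activated cells. In the gate test, the culture is the pairing: without the replicate block 0 genes were higher and 0 lower (0 members, Tmsb10 at -0.65 with an edgeR adjusted p of 1). Over all alternatives the adjusted p of Tmsb10 ranged from 0.000258 to 1. Leaving out 1 culture gave 19 to 146 higher genes, 1 to 34 lower genes and 0 to 1 lower members. Higher and lower genes numbered 305 and 109 with no filter on low counts, 417 and 221 for a trend over 4 gates, 70 and 14 with the main phases only (chosen after seeing the data), and 94 and 30 in DESeq2. No member was called higher in any of these, where 1402 of 8739 genes had an unadjusted p under 0.05 in edgeR. Depth limits Cnn2 and Tagln2 most, with 13 and 17 counts at 24 h.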
